A study of Mus musculus with 26 samples.

Results

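Antigen presentation in the fetal and early postnatal mouse cortex was followed through 10 genes of the major histocompatibility complex (MHC) pathways, out of the 31053 genes counted in each sorted library. The genes were chosen by symbol. H2-K1, H2-D1, B2m, Tap1, Tap2 and Tapbp stood for class I, and H2-Aa, H2-Ab1, H2-Eb1 and Cd74 for class II. They were read in 18 libraries of sorted microglia, and the 6 class I genes also in 8 libraries of cortical nuclei.

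Pregnant C57Bl/6N dams had received saline or poly(I:C), which imitates the double-stranded RNA of viruses, at E12.5, and the offspring of the poly(I:C) dams are called MIA, for maternal immune activation. Wild-type microglia were sorted from the somatosensory (S1) cortex by Cd11b, Cx3cr1 and Cd45, with 3 saline and 3 MIA libraries of pooled embryos at E13.5, the same numbers at E15.5, and 4 saline and 2 MIA libraries of pups at P14. The paper states that these samples each held cells of both sexes, and the labels name a sex only for saline replicate 3 of P14, split into a female and a male library. The paper also counts 4 saline and 2 MIA mice at P14, so whether each P14 library mixed the sexes is uncertain. Nuclei came from the S1 cortex of male E15.5 embryos, either wild type or Csf1r-/-, with 2 saline and 2 MIA libraries of each genotype. The Csf1r-/- mice lack the receptor that microglia need to develop, in every cell of the body. All groups, the saline controls included, shared the injection of the dam at E12.5.

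MHC class I molecules stand on nearly every nucleated cell and show fragments of the cell's own proteins to cytotoxic T cells. Proteasomes cut the fragments, the Tap1 and Tap2 transporter carries them into the endoplasmic reticulum, and tapasin (Tapbp) holds the empty heavy chain, H2-K1 or H2-D1, with its light chain, beta-2 microglobulin (B2m), until a fragment fits. MHC class II molecules, here the I-A pair of H2-Aa and H2-Ab1 and the I-E beta chain H2-Eb1, show ingested proteins to helper T cells, and the invariant chain Cd74 guards their groove on the way. Both sets are known to be raised by interferons, and resting microglia of the healthy adult brain are known for low class II. C57BL/6 mice lack a working I-E alpha gene.

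With the exception of B2m on chromosome 2 and Cd74, the genes of the 10 lie on chromosome 17. H2-K1 spans chr17:33996017-34000347 on the minus strand and H2-D1 chr17:35262730-35267499 on the plus strand, with Tapbp, Tap1, Tap2, H2-Ab1, H2-Aa and H2-Eb1 between or beside them, all in the GRCm38.p6 build with RefSeq annotation. Promoter windows from RefSeq, 250 bases before to 50 after the start site, were matched for 7 of the 10 genes. Tap2, H2-Ab1 and Cd74 were not matched. Short motifs were searched on both strands. GAAANNGAA is the core of an interferon-stimulated response element and stood in 8.56% of the 32851 promoters of the same length. GGGNNTTCC is kappaB-like and stood in 5.82%, TGACGTCA and the shorter TGACG that lies inside it resemble the X2 box and stood in 1.79% and 20.8%, and ATTGG, the Y box, stood in 37.4%.

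The stretches that hold these letters are shown for both classical heavy chains, which have a shared layout, for their light chain and for 1 class II gene. Capitals mark the letters found, and CCAAT is the Y box read on the other strand. They come from chr17:34000320-34000473 on the minus strand for H2-K1, chr17:35262908-35263060 on the plus strand for H2-D1, chr2:122147533-122147653 on the plus strand for B2m and chr17:34287852-34287969 on the minus strand for H2-Aa. The H2-K1 stretch crosses the start site on which its window was set, and the others end before theirs. For H2-D1 that site lies inside the gene span given above, so its stretch lies within the span. The Tapbp window (chr17:33919228-33919527) also lies within the span of its gene (chr17:33915899-33929292).
H2-K1: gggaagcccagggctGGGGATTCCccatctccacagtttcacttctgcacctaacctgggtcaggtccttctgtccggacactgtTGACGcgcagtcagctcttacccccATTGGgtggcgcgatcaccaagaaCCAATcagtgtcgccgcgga
H2-D1: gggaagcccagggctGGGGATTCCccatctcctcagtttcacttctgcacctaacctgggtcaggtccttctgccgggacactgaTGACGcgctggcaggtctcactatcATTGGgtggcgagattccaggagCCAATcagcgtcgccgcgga
B2m: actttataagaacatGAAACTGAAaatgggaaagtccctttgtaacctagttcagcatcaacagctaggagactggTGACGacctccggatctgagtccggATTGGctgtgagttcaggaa
H2-Aa: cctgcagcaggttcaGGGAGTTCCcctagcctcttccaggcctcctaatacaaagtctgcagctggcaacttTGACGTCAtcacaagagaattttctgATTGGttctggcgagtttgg

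The H2-K1 and H2-D1 windows aligned over 228 columns with 90.4% identity, and each held 1 kappaB-like match, 1 TGACG and 2 ATTGG in the same order. B2m held the interferon-response letters in place of the kappaB-like ones, with a TGACG and an ATTGG downstream of them, and a further TGACG on the minus strand past the start site, outside the stretch shown. H2-Aa was the 1 window of the 7 with the long TGACGTCA. Tap1 had 1 TGACG and 1 ATTGG, while Tapbp and H2-Eb1 had 2 ATTGG each. These matches are letters in a window and say nothing of what bound there.

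The deposited values were UMI counts, that is, counts of tagged RNA molecules per gene and cell. Cells past the quality filter held between 6160925 and 105751888 UMIs per sorted library and between 9897721 and 17605575 per nuclei library. All 12 microglial markers were found in each of the 18 sorted libraries, and 61368 macrophages were kept after other cells and doublets were removed: 12141 at E13.5, 20903 at E15.5 and 28324 at P14. Markers of T or NK cells summed to at most 0.41 UMIs per 1000000 UMIs (CPM) and those of neutrophils to at most 0.21, while dendritic cell markers summed to 3.36 to 22.3 CPM with 1 to 4 of the 8 at 0 in a library. Of 109 pairs of libraries of an experiment, 9 shared more than 1% of the smaller library's cell barcodes, up to 230 barcodes or 61.3% between MIA replicate 2 of E13.5 and MIA replicate 3 of E15.5. The number of the 10 genes called in each comparison of the sorted libraries was the same without the shared barcodes. Csf1r and microglia-like nuclei did not follow the genotype in 2 nuclei libraries: 0 Csf1r UMIs and 0 such nuclei were counted in the library labelled wild-type MIA 2, and 10 and 7 in the library labelled Csf1r-null saline 2.

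Levels are CPM of the kept macrophages, summed per library. In such sums, fewer cells of a type and less RNA per cell cannot be told apart. The counts come from the 3′ ends of transcripts and are not divided by length, so levels are compared between libraries and not between genes. H2-K1 and H2-D1 share long stretches of sequence with each other and with the H2-Q and H2-T genes, and how the counting divided shared reads among them is uncertain.

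Sorted microglia carried class I transcripts at every age, and H2-Aa and H2-Eb1 gave almost no UMIs. B2m ranged from 954.8 to 1540 CPM over the 18 libraries, H2-D1 from 175.7 to 433.3 and H2-K1 from 98.3 to 199.9. Tapbp ranged from 48.6 to 127.9 CPM, Tap2 from 18.3 to 54.6 and Tap1 from 18.2 to 37.5. Of the class II genes, Cd74 reached 4.89 to 16.4 CPM and H2-Ab1 5.02 to 12.99. H2-Eb1 stayed between 0.0447 and 0.392 CPM and H2-Aa between 0 and 0.355, with 113 and 39 UMIs in all the macrophages together. The plot of the 10 genes by library gives every library's level at each age.

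**Figure D1:**
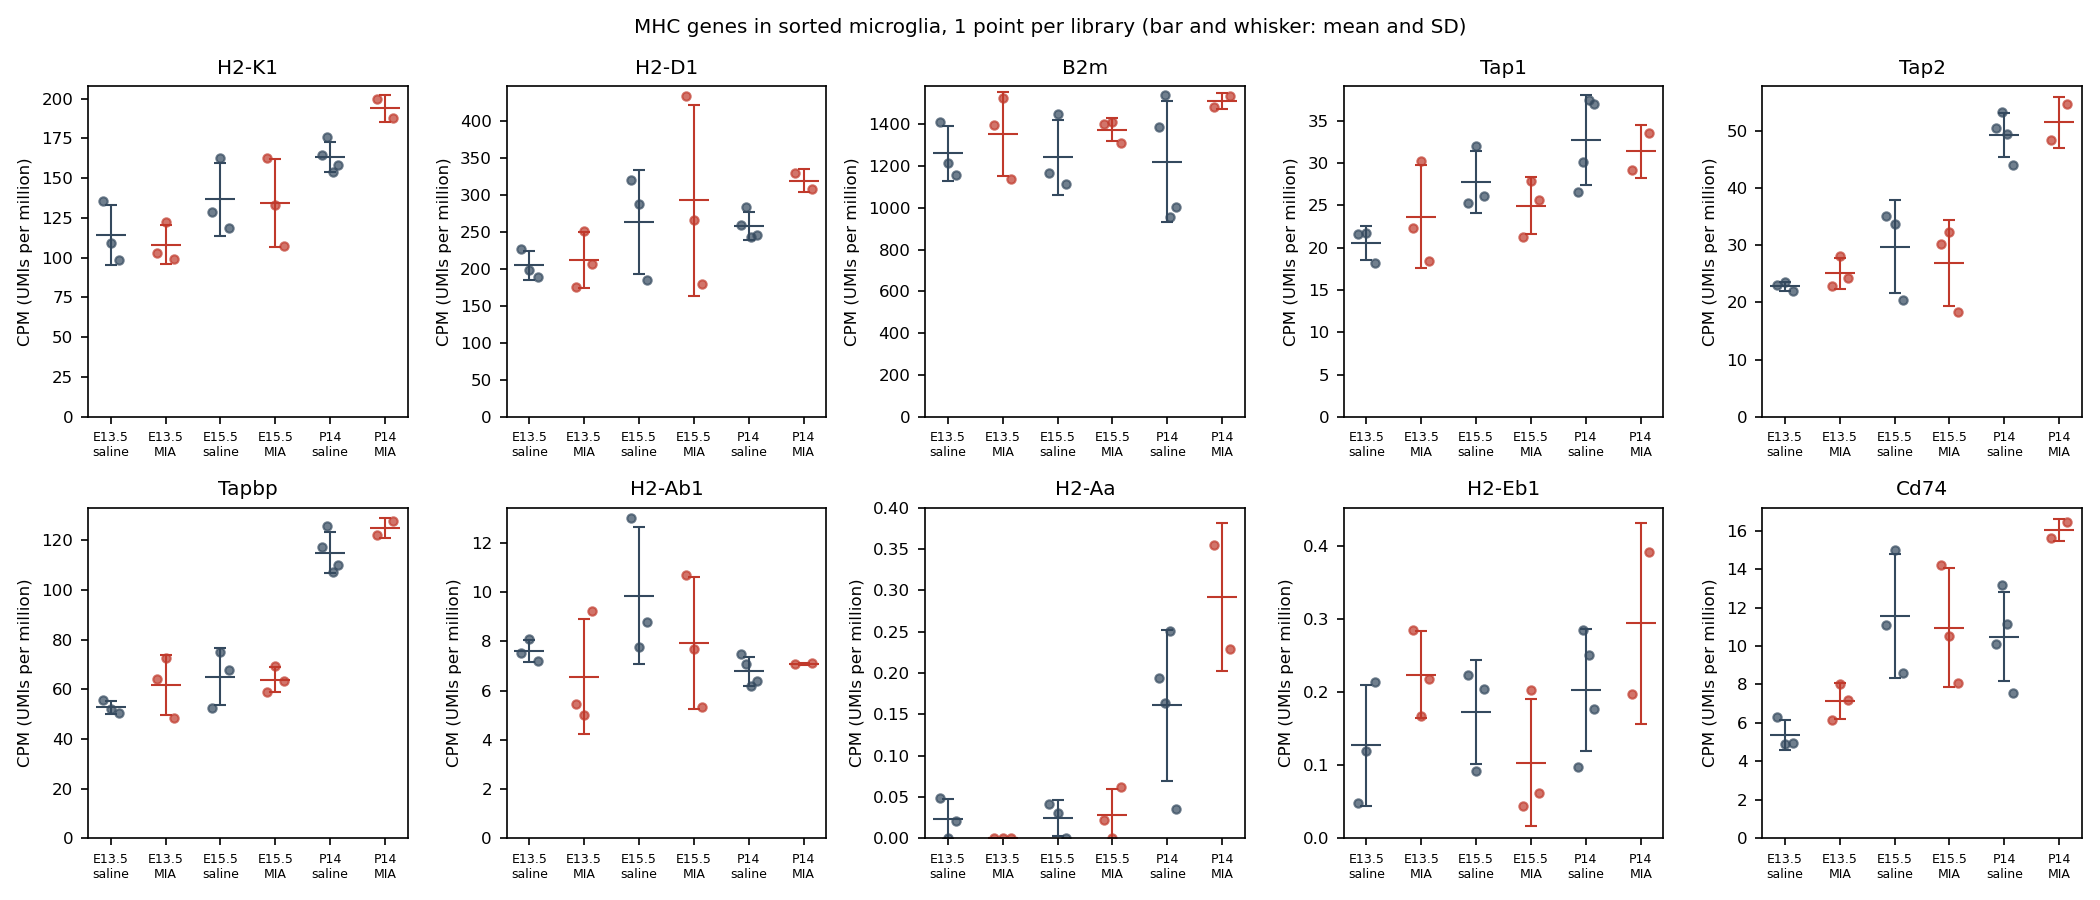
Level of each gene (CPM, linear axis from 0) in the 18 sorted libraries by age and treatment, with 1 point per library and a bar and whisker for the mean and SD of each group. B2m lies between 954.8 and 1540 CPM, and Tapbp is higher in every P14 library than in every embryonic one.

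How single cells shared these UMIs was then examined. H2-Ab1 was seen in 4159 of the 61368 macrophages (6.78%), H2-Eb1 in 96 and H2-Aa in 28, and only 4 cells held all 3 chains, 2 in the female saline library of P14 and 2 in MIA replicate 2 of P14. At least 1 H2-Ab1 UMI was found in 9.09% of microglia-like cells of the embryo at a median depth of 10517 UMIs, against 0.333% of the neuron-like cells that were sorted with them, at a median of 13636 UMIs. The neuronal share was the lower one at the greater depth. A cell with 10 or more UMIs of the 3 chains together, called class II-high, was not seen among 12141 macrophages of E13.5 or 20903 of E15.5. In the single libraries of the embryo, these 0 counts allow shares of up to 0.0541% (3 counts of 5544 cells) to 1.10% (3 of 273 cells), where the exact 95% intervals end at 0.0665% and 1.34%. At P14 there was 1 such cell among 18245 after saline and there were 2 among 10079 after MIA, each in a library of its own, with shares of 0.0223% (exact 95% interval 0.000564% to 0.124%), 0.0187% (0.000473% to 0.104%) and 0.0211% (0.000535% to 0.118%). Such intervals and limits cover counting error only. The difference between MIA and saline at P14 was 0.0143 percentage points (two-sided exact permutation test, p = 0.4). The smallest p that 2 against 4 libraries allow is 0.133, above 0.05, so this test could not decide whether the share differed.

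Cd74 was seen in 5.76% to 11.4% of macrophages of the E13.5 libraries, 6.76% to 11.6% at E15.5 and 3.12% to 6.30% at P14, without regard to depth. The highest count in 1 cell was 38 UMIs for Cd74 and 10 for the 3 class II chains together. The 1% of cells with the most Cd74 held 18.75% to 34.8% of its UMIs in the embryonic libraries. At P14 they held 42.7% to 47.4%, also without regard to depth.

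Since libraries differed in depth per cell, from a median of 3682 to 24494 UMIs, shares of cells with a UMI were also taken after each cell had been thinned to 2000 UMIs. For this, 2613 shallower cells of E13.5, 1548 of E15.5 and 1719 of P14 were left out. Cd74 was then seen in 0.964% to 1.54% of cells at E13.5, 1.51% to 2.86% at E15.5 and 1.39% to 2.495% at P14. H2-K1 was seen in 16.7% to 23.7% of cells at E13.5, 17.4% to 25.3% at E15.5 and 24.6% to 30.3% at P14. Without thinning, these ranges were 50.4% to 68.9%, 55.0% to 65.2% and 41.7% to 61.9%, in another order. Tapbp was seen in 9.50% to 13.3%, 10.1% to 13.9% and 19.8% to 22.1% of thinned cells, so that the P14 libraries lay above all the embryonic ones, as they did in CPM.

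The change with age was asked first of the saline libraries. From E13.5 to E15.5, Cd74 and Tap1 rose, and the other 6 tested genes did not pass the test. Cd74 measured 6.29, 4.89 and 4.97 CPM in the 3 libraries of E13.5 and 11.1, 15.0 and 8.57 in those of E15.5. All 3 later libraries lay above all 3 earlier ones, and the difference was 1.14 ± 0.25 on the log2 scale (SE), or 2.20-fold, with an adjusted p of 0.0042 by edgeR's quasi-likelihood test. Tap1, a subunit of the peptide transporter, measured 21.7, 21.7 and 18.2 CPM at E13.5 and 25.3, 32.0 and 26.1 at E15.5, again without overlap. The share of all genes without overlap was not counted in any age step, so the missing overlap is a description only. Its log2 difference was 0.46 ± 0.15 with an adjusted p of 0.041 in edgeR. The Tap1 call was lost in 5 of the 6 runs that left out 1 library, and held only without saline replicate 1 of E15.5. It was also lost with total UMIs as the scale and with all barcodes (edgeR, adjusted p = 0.090 and 0.14).

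These 2 calls of 8 tested genes stood beside 22.9% of the 14326 genes tested. H2-Aa and H2-Eb1 were too low to be tested in any comparison. All 8 log2 differences were above 0, with a median of 0.40 against 0.05 over all genes. For the heavy chains they were 0.29 ± 0.17 (H2-K1, adjusted p = 0.23) and 0.40 ± 0.26 (H2-D1, adjusted p = 0.29), and for B2m 0.00 ± 0.17 (adjusted p = 0.99), all in edgeR.

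After MIA the same interval gave no call among the 8 genes, where 27.1% of all 14326 genes passed. Cd74 measured 6.15, 8.04 and 7.20 CPM at E13.5 and 14.2, 10.5 and 8.08 at E15.5. The groups did not overlap, which was not counted over all genes. The log2 difference of Cd74 was 0.68 ± 0.26 with an adjusted p of 0.057 in edgeR and 0.039 in DESeq2. All 8 differences were again above 0, with a median of 0.21 against 0.04 over all genes. Saline and MIA libraries are separate, and whether the age step itself differed between them was tested as an interaction, in which Cd74 gave -0.45 ± 0.35 (edgeR, adjusted p = 1.00). Without MIA replicate 3 of E15.5, 3 genes passed after MIA, namely Cd74, H2-D1 and H2-K1. That library shared 230 barcodes with MIA replicate 2 of E13.5. Without the shared barcodes the log2 differences were 0.49 for Cd74, 0.32 for H2-K1 and 0.46 for H2-D1 (edgeR, adjusted p = 0.23, 0.22 and 0.24).

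From E15.5 to P14 in saline libraries, Tapbp and Tap2 rose and H2-Ab1 fell. Tapbp, which bridges the heavy chain to the transporter, rose from 52.5, 75.1 and 67.8 CPM to 117.3, 125.6, 107.2 and 110.0 CPM. No library of one age reached the range of the other, and the log2 difference was 0.60 ± 0.12 (edgeR, adjusted p = 0.00078). Tap2, the partner of Tap1, rose from 35.0, 33.8 and 20.4 CPM to 50.4, 53.3, 49.4 and 44.0 CPM, a log2 difference of 0.50 ± 0.20 (edgeR, adjusted p = 0.046). H2-Ab1, the I-A beta chain, fell from 12.99, 7.77 and 8.80 CPM to 7.48, 7.06, 6.19 and 6.40 CPM, a log2 difference of -0.77 ± 0.25 (edgeR, adjusted p = 0.019). Neither pair of groups overlapped, and the share of all genes without overlap was not counted in this step. The Tap2 call was lost in 3 of 10 alternatives (adjusted p of 0.055 to 0.062 in edgeR) and in 4 of 7 runs that left out 1 library. Without saline replicate 3 of E15.5 its log2 difference was 0.27 (edgeR, adjusted p = 0.22), and the call was also lost without saline replicate 1, 2 or 3 female of P14. H2-Ab1 gave -0.49 without saline replicate 1 of E15.5 (edgeR, adjusted p = 0.15), where its call was lost, and it passed in the other 6 such runs. These are 3 of 8 genes where 49.3% of all 14326 genes passed, 2 higher and 1 lower. Clusters named dividing-like from their markers held 2399 cells at E15.5 and 121 at P14, both treatments together. At E15.5 they had the highest H2-Ab1 (13.2 CPM) and the lowest Tapbp (45.7 CPM) of the named macrophage clusters. Their part in this step was not tested.

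The heavy chains and B2m did not pass in this step. H2-K1 measured 128.7, 162.5 and 118.8 CPM at E15.5 and 164.5, 175.8, 153.8 and 158.4 at P14, and its log2 difference was 0.03 ± 0.16 (edgeR, adjusted p = 0.89). With total UMIs in place of TMM factors as the scale, the median log2 difference of all genes moved from 0.03 to 0.25. On that scale Tap2 and Tapbp still passed, and H2-Ab1 did not (log2 difference -0.54, adjusted p = 0.054). The E15.5 saline libraries enter both age steps, which are thus not independent.

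The other genes of the pathway were read in the same age steps. Of the 9 tested genes for class II processing and loading, 8 rose from E13.5 to E15.5 after saline, where 22.9% of all genes tested passed, and 7 after MIA, where 27.1% did. From E15.5 to P14 after saline 6 rose and 1 fell, beside 49.3%. H2-Oa and H2-Ob, the chains of H2-O, which restrains peptide exchange on class II, rose by 1.62 ± 0.15 and 1.14 ± 0.21 on the log2 scale from E13.5 to E15.5 after saline, and by 0.96 ± 0.13 and 1.35 ± 0.19 from E15.5 to P14. After MIA their first step was 1.47 ± 0.15 and 1.25 ± 0.23. March1, a ubiquitin ligase that removes class II from the surface, rose by 0.99 ± 0.14 from E13.5 to E15.5 after saline. H2-DMb1, the beta chain of the H2-M exchange factor, rose by 1.40 ± 0.18 from E15.5 to P14. Ctsl, a lysosomal protease, rose by 1.06 ± 0.26 from E13.5 to E15.5 after MIA, and by 0.59 without MIA replicate 1 of E15.5. These genes handle class II molecules whose alpha chain, H2-Aa, was at most 0.355 CPM in the same libraries.

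Of 10 genes for class I peptide supply and loading, 0 passed from E13.5 to E15.5 after saline, beside 22.9% of all genes. Calr, the chaperone calreticulin, had the lowest p there (-0.42 ± 0.16, adjusted p = 0.074 in edgeR), and passed with the replicate block (0.046) and in DESeq2 (0.043). After MIA 2 of the 10 passed, beside 27.1%. Calr fell by 0.46, a call lost in 4 of 8 alternatives (adjusted p of 0.051 to 0.069 in edgeR) and in each run that left out 1 library but that without MIA replicate 3 of E15.5, with -0.30 without MIA replicate 1 of E15.5. Erap1, which trims peptides, fell by 0.34, a call lost without the filter (adjusted p = 0.069 in edgeR), without shared barcodes (0.070) and without MIA replicate 1 or 2 of E13.5 or 1 of E15.5. From E15.5 to P14 2 of the 10 passed, beside 49.3%. Tapbpl, a relative of tapasin, rose by 0.76 ± 0.13, and Psme2, a proteasome activator subunit, fell by 0.71 and by 0.45 without saline replicate 1 of E15.5, where its call was lost (edgeR, adjusted p = 0.077).

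Of 11 other class I chains, 4 rose from E13.5 to E15.5 after saline and 5 after MIA, and 3 rose and 1 fell from E15.5 to P14, beside the same 22.9%, 27.1% and 49.3% of all genes. H2-T24, Mr1 and Cd1d1 led the saline step, by 1.28 ± 0.20, 1.19 ± 0.20 and 1.12 ± 0.18. Mr1 presents vitamin metabolites and Cd1d1 presents lipids. They rose further from E15.5 to P14, by 0.73 ± 0.18, 0.60 ± 0.19 and 1.29 ± 0.17, and the Mr1 call in this step was lost without saline replicate 1 of E15.5 or of P14. After MIA, H2-Q6 had the highest value of the list from E13.5 to E15.5, 3.14 ± 1.07, beside Mr1 at 1.44 ± 0.22 and Cd1d1 at 1.12 ± 0.19. The H2-Q6 call was lost with the replicate block (edgeR, adjusted p = 0.059), without shared barcodes (0.062) and in 5 of 6 runs that left out 1 library, held only without MIA replicate 3 of E15.5, and its value was 6.40 without MIA replicate 3 of E13.5. All these differences are from edgeR, and those called rising or falling passed its adjusted threshold of 0.05.

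Of 16 transcription regulators of the MHC, 4 rose from E13.5 to E15.5 after saline and 2 after MIA, and 6 rose and 1 fell from E15.5 to P14, beside 22.9%, 27.1% and 49.3% of all genes. Irf2, an interferon regulatory factor, rose by 0.59 ± 0.19 and 0.61 ± 0.19 in the saline and MIA steps and by 1.03 ± 0.18 from E15.5 to P14. Stat2 and Rfx5 rose by 0.64 ± 0.18 and 0.57 ± 0.19 after saline, and Rela by 0.42 ± 0.10 after MIA. The Rfx5 call was lost in 5 of 9 alternatives (adjusted p up to 0.11 in edgeR) and in each run that left out 1 library but that without saline replicate 1 of E15.5. The Stat2 call was lost without saline replicate 2 or 3 of E13.5 or 2 of E15.5. The Irf2 calls were lost with all barcodes (edgeR, adjusted p = 0.090 after saline and 0.097 after MIA), after saline also with total UMIs as the scale (0.0501), and in both steps without replicate 2 or 3 of either age. Irf1 rose by 0.69 ± 0.09 from E15.5 to P14, while Nlrc5, the transactivator of class I genes, fell by 1.79 with an SE of 0.45. In the same step Tap2 and Tapbp rose and the heavy chains did not pass. Of the 6 class I members 4 had a log2 difference above 0, with a median of 0.02. How Nlrc5 relates to these genes was not tested.

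The effect of maternal poly(I:C) was asked within each age. At E13.5, a day after the injection, none of the 8 tested genes passed, and 0% of all 12474 genes did by edgeR, with 105 genes at an unadjusted p under 0.05 and 2 genes called by DESeq2. H2-K1 measured 135.4, 109.0 and 98.3 CPM after saline and 103.1, 122.4 and 99.3 after MIA. H2-D1 measured 226.1, 198.4 and 188.8 against 175.7, 251.6 and 207.0. B2m measured 1409, 1214 and 1158 against 1397, 1525 and 1135. In all 3 the MIA libraries lay among the saline ones or on both sides of them.

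The member log2 differences at E13.5 ran from -0.11 to 0.41, with a median of 0.11 against 0.00 over all genes. The highest was that of Cd74, 0.41 ± 0.17 (edgeR, adjusted p = 1.00), the 1 member with an unadjusted p under 0.05, and its groups overlapped by 1 MIA library. Without the barcodes shared between libraries it was 0.61. H2-T23, a nonclassical class I chain of the Qa-1 type, had the lowest p of its list (0.30 ± 0.13, adjusted p = 1.00 in edgeR). Interferon-responsive markers summed to 52.8 to 107 CPM after saline and 62.3 to 159 after MIA at this age. Their part in these values was not tested.

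At E15.5 no gene passed either. Of 13302 genes, 0% were called by edgeR and 0 by DESeq2, with 41 at an unadjusted p under 0.05. This fit did not pair libraries of the same number, and with the number as a block none of the 8 tested genes passed either. H2-D1 spread widely, at 319.3, 286.7 and 184.3 CPM after saline and 433.3, 265.2 and 179.4 after MIA. Libraries of the same replicate number lay together, high in replicate 1 and low in replicate 3 of both treatments. Its log2 difference was 0.19 ± 0.37 and became -0.26 without MIA replicate 1, the library from which most cells were removed as other types (23.9%). H2-K1 gave 0.01 ± 0.23, B2m 0.17 ± 0.17 and Cd74 -0.04 ± 0.30, and the groups overlapped for all 8 genes. Their median was -0.02 against 0.01 over all genes.

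At P14, 3 of the 8 tested genes had both MIA libraries above all 4 saline libraries, as did 5.14% of all 13027 genes tested. None passed the adjusted test, and 0% of all genes did. The saline libraries include the female and the male one of replicate 3, which shared 239 barcodes. With this pair summed, none of the 8 tested genes passed either. H2-K1 measured 164.5, 175.8, 153.8 and 158.4 CPM after saline and 199.9 and 187.6 after MIA, a log2 difference of 0.27 ± 0.09 (edgeR, adjusted p = 0.94). H2-D1 measured 259.3, 283.0, 242.5 and 245.0 against 329.6 and 307.6, a log2 difference of 0.33 ± 0.10 (edgeR, adjusted p = 0.94). Cd74 measured 10.1, 13.1, 11.1 and 7.57 against 15.6 and 16.4, a log2 difference of 0.64 ± 0.19 (edgeR, adjusted p = 0.94). In these libraries 42.7% to 47.4% of the Cd74 UMIs lay in the top 1% of cells, whose part in the difference was not tested. Across all 13027 genes 0% were called by edgeR and 1 gene by DESeq2, with 472 genes at an unadjusted p under 0.05, these 3 among them.

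The light chain did not follow in this way. B2m measured 1388, 1541, 954.8 and 1002 CPM after saline and 1482 and 1537 after MIA. Saline replicate 2 lay above both MIA libraries, and both saline libraries of replicate 3, the female and the male one, were low. The log2 difference of B2m, 0.32 ± 0.21, fell to 0.03 when the replicate number was taken as a block, which leaves only replicates 1 and 2 to compare with MIA. In the same fit H2-K1 gave 0.17, H2-D1 0.22 and Cd74 0.45, each with an adjusted p of 0.74 in edgeR. Tap1, Tap2, Tapbp and H2-Ab1 overlapped between the groups, with log2 differences of -0.03 to 0.14. The median of the 8 was 0.21 against 0.00 over all genes.

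Of the other pathway genes at P14, Psme1 (0.18 ± 0.12), H2-DMb1 (0.18 ± 0.12) and H2-M3 (0.24 ± 0.11) had the lowest p of their lists in edgeR, each with an adjusted p of 0.94. At E15.5 the genes with the lowest p of their lists were Psmb9 (-0.24 ± 0.30), Ctsl (0.37 ± 0.32), Rfx5 (-0.36 ± 0.24) and H2-M3 (0.29 ± 0.32). At E13.5 they were Psmb9 (0.13 ± 0.11), H2-Oa (0.26 ± 0.14) and Creb1 (-0.17 ± 0.10) beside H2-T23. Psmb9 is the immunoproteasome subunit encoded next to Tap1. None of the pathway genes passed for MIA at any age.

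**Figure D2:**
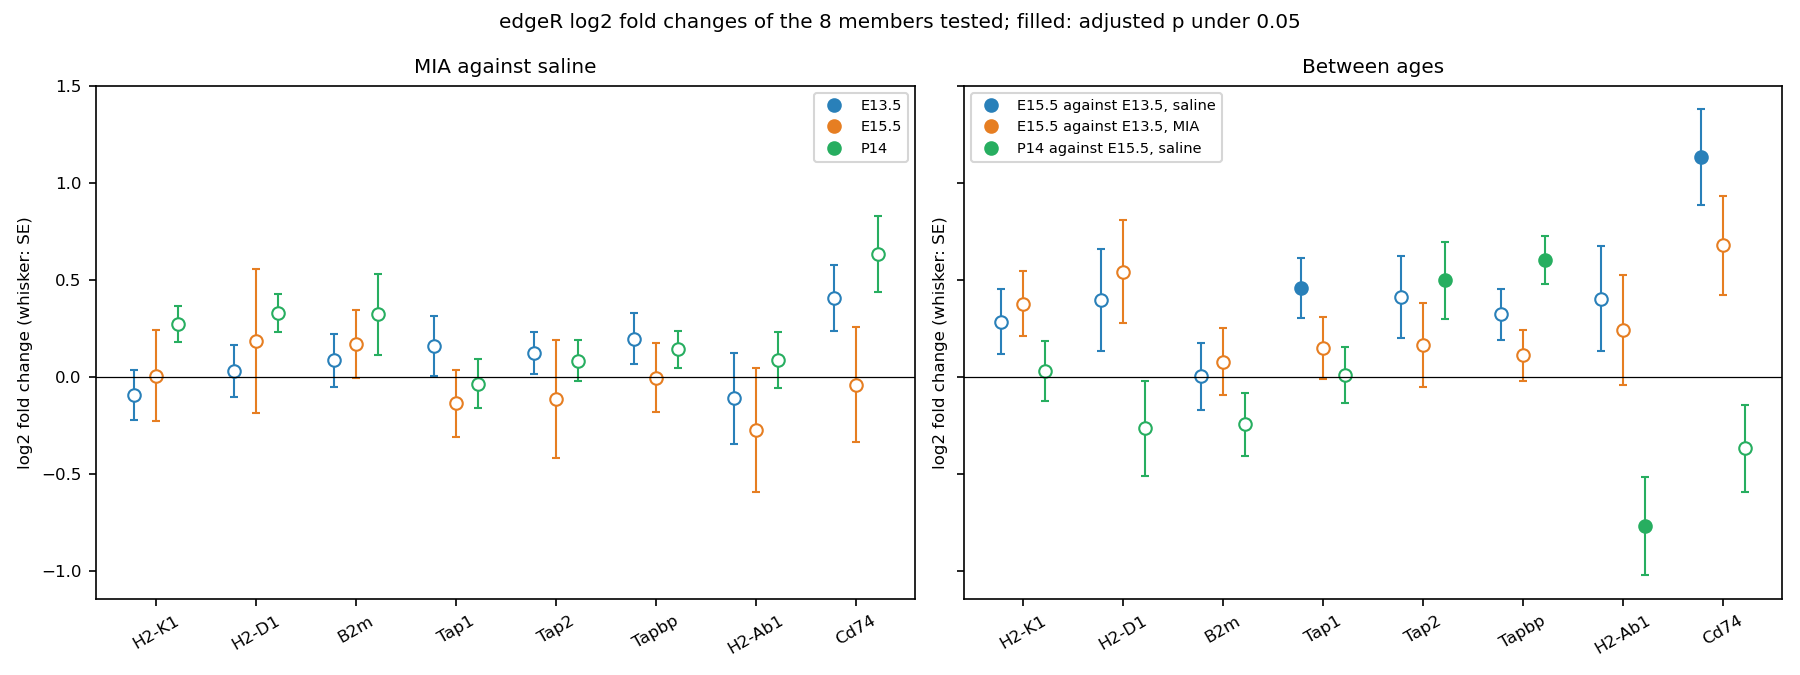
Log2 fold change of the 8 tested genes for MIA against saline at each age (left) and between ages (right), with whiskers of 1 SE and filled points where the adjusted edgeR test was passed. No point for MIA is filled, and Cd74 and Tap1 are filled from E13.5 to E15.5 after saline, Tap2, Tapbp and H2-Ab1 from E15.5 to P14.

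Whether the MIA effect differed between ages was tested directly, and 0% of 14326 genes passed in edgeR and 0 in DESeq2 for either pair of ages, with 83 genes at an unadjusted p under 0.05 for E15.5 against E13.5 and 142 for P14 against E15.5. The Cd74 effect at P14 exceeded that at E15.5 by 0.68 ± 0.35 (edgeR, adjusted p = 1.00). The other 7 genes differed by 0.11 to 0.37 between P14 and E15.5, all above 0, and none of them had a lower p. The E15.5 libraries enter both tests of the difference. The pathway genes with the lowest p of their lists were Psmb9 (-0.38), H2-DMb2 (-0.34) and H2-T24 (-0.52) for E15.5 minus E13.5, and Psmb9 (0.38), H2-DMa (0.27), Irf9 (0.26) and H2-Q4 (0.49) for P14 minus E15.5, each with an adjusted p of 1.00 in edgeR.

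Levels by cell cluster were then read as a description, since the clusters were made from these same cells. The clusters hold E13.5 and E15.5 cells in unlike shares, 183 and 8985 of the microglia-like cells but 933 and 998 of the border macrophage-like ones, so the embryonic levels are given at E15.5. There, the 458 interferon-responsive-like macrophages had the highest class I levels of the named clusters, with 436.2 CPM of H2-K1, 630.8 of H2-D1, 2057 of B2m and 164.3 of Tap1. The 8985 microglia-like cells held 144.1, 307.8, 1375 and 23.01 CPM of the same genes. The 2399 dividing-like cells held 100.9 CPM of H2-K1, and the 998 border macrophage-like cells, the type that lines meninges and vessels, held 188.6. Neuron-like cells of the same sorts, which were removed, held 4.26 CPM of H2-K1 and 41.0 of B2m. At E13.5, H2-K1 was 169.8 CPM in 77 interferon-responsive-like cells and 175.1 in border macrophage-like cells, while Tap1 was 95.1 and 25.3.

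Class II genes followed another order. At E15.5, Cd74 was 27.8 CPM in the 386 Hmox1-high-like cells and 26.2 in interferon-responsive-like cells, against 17.2 in border macrophage-like and 11.2 in microglia-like cells. H2-Ab1 was 9.12, 8.85, 4.16 and 9.52 CPM in these 4 clusters, so the border macrophage-like cells had the least, from 56 UMIs. Dividing-like cells had the most H2-Ab1 of the named clusters, 13.2 CPM from 564 UMIs, and 7.96 CPM of Cd74. At P14, Cd74 was 36.7 CPM in 1939 Ccl3 and Ccl4-high-like cells, 28.6 in 1157 interferon-responsive-like cells and 8.97 in the 24995 cells of clusters without a name. In the 112 border macrophage-like cells of P14, H2-K1 was 279.7 CPM and Cd74 22.3, while H2-Ab1 was 1.39.

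**Figure D3:**
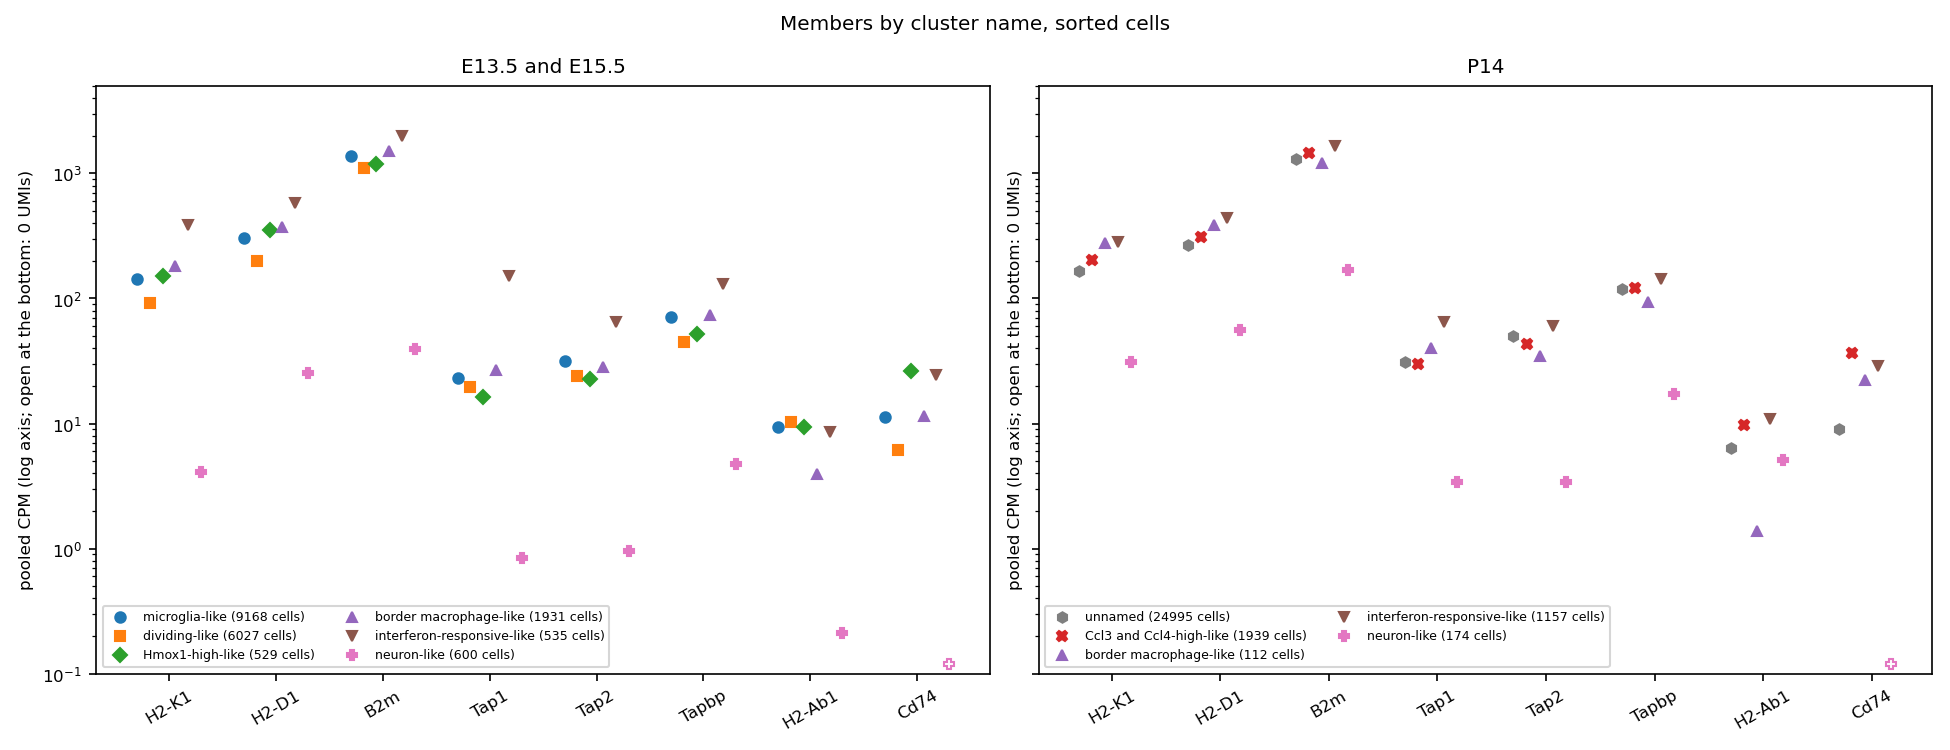
Pooled level (CPM, log axis) of 8 genes by cluster name in the embryo (left, E13.5 and E15.5 pooled) and at P14 (right), where each marker is 1 cluster name and an open marker at the bottom stands for 0 UMIs. In the pooled embryonic cells, Tap1 and H2-K1 are highest in the interferon-responsive-like ones (151.1 and 385.2 CPM).

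Within each library, the interferon-responsive-like cells could be set beside all other macrophages of that library. They made up 0.402% to 1.83% of macrophages at E13.5, 1.20% to 4.10% at E15.5 and 3.30% to 5.18% at P14. H2-K1, H2-D1, B2m, Tap1 and Tapbp were higher inside than outside in 18 of 18 libraries, Tap2 in 16 and Cd74 in 13. The inside values of E13.5 rest on few cells, 7, 7 and 16 after saline and 5, 6 and 36 after MIA. Over all 18 libraries Tap1 had the widest gap, with a median ratio of 5.14, against 2.55 for Cd74, 1.90 for H2-K1, 1.84 for Tapbp, 1.69 for H2-D1, 1.44 for B2m and 1.33 for Tap2. The Tap1 ratio had a median of 7.87 at E15.5 and 2.13 at P14, where that of Cd74 was 2.55. Outside these cells, H2-K1 at P14 measured 161.6, 171.6, 147.4 and 153.9 CPM after saline and 194.3 and 180.9 after MIA. Tap1 outside them measured 21.15, 21.33 and 17.76 CPM at E13.5 and 24.03, 24.47 and 23.31 at E15.5 after saline. The part of these cells in the P14 difference and in the age step was not tested.

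**Figure D4:**
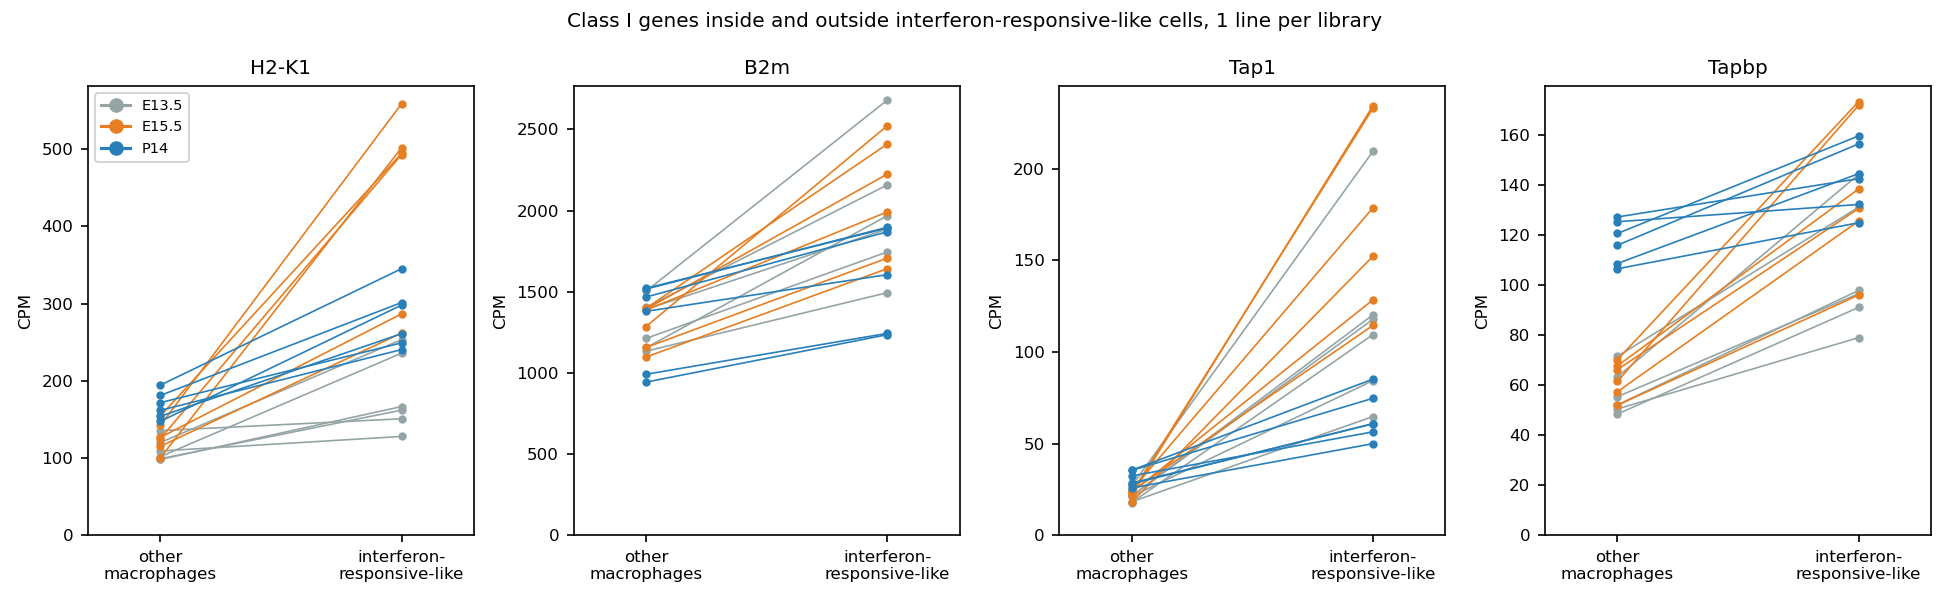
Level (CPM, linear axis from 0) of H2-K1, B2m, Tap1 and Tapbp outside and inside the interferon-responsive-like cells of each of the 18 sorted libraries, with 1 line per library, coloured by age. Tap1 inside runs from 49.9 to 234.5 CPM and outside from 17.8 to 35.4.

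Over the 18 libraries some pairs of members moved together, and others moved apart or showed little relation. With each group's mean taken out, the highest Pearson correlations of log2 levels were 0.80 for H2-K1 with H2-D1, 0.81 for H2-K1 with Cd74 and 0.82 for H2-D1 with Tap2. The lowest were -0.70 for Tapbp with H2-Ab1 and -0.65 for Tap1 with H2-Ab1, and H2-D1 with Tap1 gave -0.06. These are descriptions, since the points share libraries, depth and pools. Of 11434 genes compared, those nearest to the mean of H2-K1, H2-D1 and B2m were BC028528 (0.867), Rnf130 (0.858), Taf6l (0.855), Tpra1 (0.853) and Alg1 (0.846). With group means removed they were Bst2 (0.887), Pdia4 (0.884), Sft2d1 (0.880), Ifi35 (0.861) and Nutf2 (0.853), of which Bst2 and Ifi35 are interferon-stimulated genes. Those nearest to the class II mean were Taf6l (0.898), Cbr1 (0.882), Aplp1 (0.877), Pcsk1n (0.873) and Tm2d2 (0.865).

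In nuclei of the E15.5 cortex, class I transcripts were scarce. Summed over all 41539 nuclei kept, there were 350 UMIs of H2-K1, 2390 of H2-D1, 512 of B2m, 829 of Tapbp, 83 of Tap1 and 25 of Tap2. H2-D1 measured 20.5 to 28.1 CPM over the 8 libraries, Tapbp 5.48 to 10.5, B2m 3.14 to 7.32 and H2-K1 2.30 to 6.23, and Tap2 was too low to be tested. Empty droplets of the replicate 1 libraries, with 100 UMIs or fewer, held 21.9 to 29.1 CPM of H2-D1, 3.76 to 9.62 of H2-K1 and 11.8 to 34.6 of B2m. For H2-D1 the nuclei libraries lay about the range of this free RNA, for H2-K1 within or below it and for B2m below it. By level alone, these sums over all nuclei thus cannot be told from free RNA. Split by cell type, H2-K1 lay above the droplets in apical progenitor-like nuclei (26.0 CPM). It lay below them in migrating, projection and interneuron or ventral neuron-like nuclei (0.29 to 1.19 CPM).

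The genes were spread unevenly over cell types. H2-K1 was 26.0 CPM in 5078 apical progenitor-like nuclei, the stem cells of the cortex, and 7.84 in 3384 intermediate progenitor-like nuclei, against 0.29 to 1.19 in the migrating, callosal, subcerebral, corticothalamic and interneuron or ventral neuron-like types. In 137 Cajal-Retzius-like nuclei it was 3.81 CPM, from 2 UMIs. Tapbp was 19.3 CPM in apical and 10.8 in intermediate progenitor-like nuclei, and 5.32 to 10.9 in those 5 neuron types, highest in the migrating one. H2-D1 ran only from 19.3 to 31.2 CPM over the progenitor types and those 5 neuron types. The 31 microglia-like nuclei held 312.1 CPM of B2m and 91.8 of H2-K1, and the 58 vascular-like nuclei held 77.7 CPM of B2m and 98.9 of H2-D1. The H2-K1 level of apical progenitor-like nuclei, in the order wild-type saline, wild-type MIA, null saline and null MIA, was 46.2, 32.5, 19.1 and 21.6 CPM in replicate 1 and 28.9, 14.2, 20.8 and 17.8 in replicate 2. In both replicates the wild-type saline library was highest, and the 4 replicate 1 libraries lay above the 9.62 CPM of the empty droplets.

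**Figure D5:**
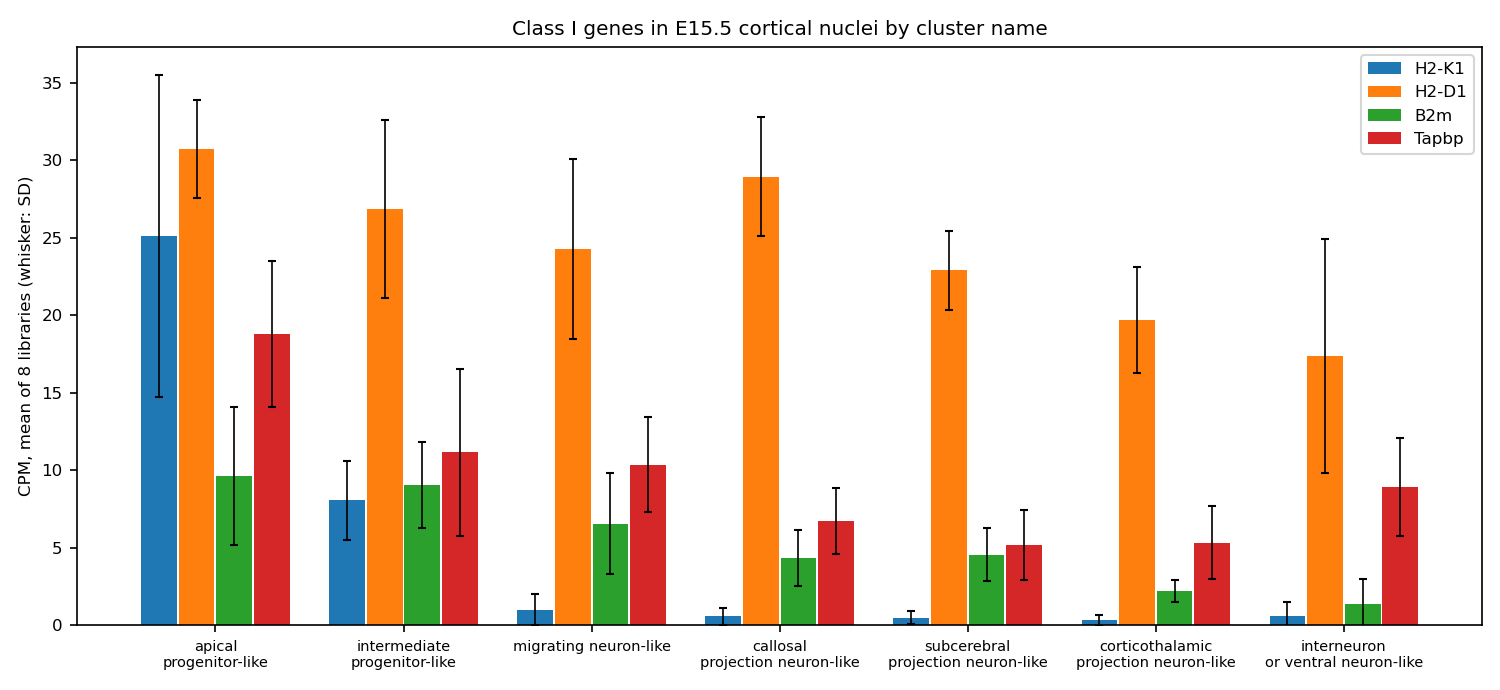
Level (CPM) of 4 class I genes in nuclei by cluster name, with bars for the mean of the 8 libraries and whiskers for the SD, cut at 0. Of the 7 types plotted, H2-K1 is highest in apical progenitor-like nuclei, next in intermediate ones and near 0 in the 5 neuron-like types, while H2-D1 is much alike in all of them.

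None of the 5 tested class I genes passed for MIA in either genotype, for the difference of the MIA effects or for Csf1r-null against wild type. In each of the 4 comparisons 0% of 14379 genes passed in edgeR. Genes at an unadjusted p under 0.05 numbered 791, 41, 255 and 434 in that order, and DESeq2 called 4, 1, 2 and 0. For MIA in wild-type nuclei, B2m measured 6.48 and 7.32 CPM after saline and 5.79 and 4.86 after MIA, a log2 difference of -0.45 ± 0.30 (edgeR, adjusted p = 0.91). In null nuclei B2m measured 4.96 and 5.26 against 3.14 and 4.70, a log2 difference of -0.38 ± 0.31 (edgeR, adjusted p = 1.00). Leaving out 1 library gave -0.64 to -0.25 in wild-type and -0.78 to -0.035 in null nuclei. With 2 libraries a group, the B2m levels did not overlap in either genotype, while those of the other 4 tested genes did. The share of all genes without overlap was not counted here. H2-K1 gave -0.42 ± 0.37 in wild-type nuclei and -0.26 ± 0.39 in null nuclei, the latter 0.14 without the 2 libraries that went against their labels. The wild-type value ran from -0.44 to -0.13 over the alternatives and from -0.80 to -0.13 when 1 library was left out.

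Between genotypes, H2-K1 was 6.23, 4.81, 3.75 and 2.92 CPM in the libraries labelled wild type and 2.30, 2.57, 3.62 and 2.35 in those labelled null. Only the lowest wild-type library, the one labelled MIA 2, fell among the null ones, and the highest null one was the library labelled saline 2. The log2 difference was -0.68 ± 0.27 (edgeR, adjusted p = 1.00), and it was -1.03 without these 2 libraries. B2m gave -0.42 ± 0.22 (edgeR, adjusted p = 1.00). Microglia-like nuclei, which carry both transcripts, numbered 9, 9, 6 and 0 in the libraries labelled wild type and 0, 0, 7 and 0 in those labelled null. Over 8 alternatives, 1 of them without these nuclei, the log2 difference ran from -1.03 to -0.67 for H2-K1 and from -0.52 to -0.36 for B2m. The part of the microglia-like nuclei in the differences was not tested beyond that. Apical progenitor-like nuclei held 248 of the 350 H2-K1 UMIs. They numbered 521, 793, 533 and 790 in the libraries labelled wild type and 561, 553, 634 and 693 in those labelled null. Their H2-K1 level in the same order was 46.2, 32.5, 28.9 and 14.2 CPM, and 19.1, 21.6, 20.8 and 17.8 CPM. Their part in the H2-K1 difference was not tested. Of the other pathway genes Psme2, Lgmn, Rfx5 and H2-T24 had the lowest p of their lists for MIA in wild-type nuclei (log2 differences -0.48, -0.47, 0.56 and 1.01), with adjusted p of 0.89 in edgeR. In null nuclei these were Erap1, Ctss, Nfya and H2-Q7 (-0.74, -5.31, -0.19 and -1.13), for the difference of the MIA effects Erap1, Lgmn, Rfx5 and H2-T24 (1.18, -0.62, 0.47 and 1.65), and for null against wild type Erap1, Ctss, Creb1 and Cd1d1 (-1.07, -3.63, 0.16 and -0.41), all with an adjusted p of 1.00. Ctss, a protease that microglia express strongly, had SEs of 3.21 and 1.72 in these fits. For MIA in null nuclei the Ctss value ran from -5.40 to 0.0 over the alternatives and from -6.47 to 0.0 when 1 library was left out.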

How the data were processed

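The authors deposited UMI counts per gene and barcode, with no normalization, made per the labels with Cell Ranger 3.1.0 against mm10. The headers of the replicate 2 nuclei name another version and hold a longer gene list, so for nuclei the replicate number also stands for the software. No column belonged to another series.

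The members and the gene lists were chosen with earlier results of these data known. All 10 members are named. Of each pathway list, up to 3 genes past the threshold with the largest absolute log2 fold change are named per comparison, or the gene with the lowest p where none passed, and the 5 genes most correlated with each member mean. An item that this rule would name among the regulators is not reported here. Ifi30 and H2-T10 were not matched in the gene list.

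Sorted cells needed 500 genes and no more than 20% mitochondrial UMIs, and nuclei 500 UMIs and 200 genes. The embryonic cells, the P14 cells and the nuclei were each clustered with scanpy 1.11.5 and leidenalg 0.10.2, using 2000 variable genes, 30 principal components, 20 neighbours and a Leiden resolution of 1. Scrublet's automatic caller marked 0.174%, 0.0% and 1.52% of embryonic cells, P14 cells and nuclei, so the highest scores were removed at 0.8% per 1000 cells (1373, 1213 and 1917). A further 7 embryonic clusters (3531 cells) and 2 P14 clusters (362 cells) were removed as other cells. The study's own annotation was not used here, and names were rebuilt from markers.

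UMIs were summed per library. edgeR 4.0.16 (quasi-likelihood test, TMM, low counts filtered by group, Benjamini-Hochberg over all genes tested) was run per age for MIA, on all 18 sorted libraries in 1 fit for ages and interactions, and on all 8 nuclei libraries in 1 fit. These fits held no covariates, while the study's tests of microglia used sex and sequencing batch, and the labels do not give that batch. CPM, the UMIs of a gene per 1000000 UMIs, were computed here. The scripts were tested on simulated data. Libraries are separate samples in the labels. Where they do not come from separate animals, p-values measure technical spread only. No 2 replicates were alike within sampling noise. Alternatives were DESeq2 1.42.0, RLE factors, no filter, a replicate block, all barcodes, no border macrophages, no microglia-like nuclei and leaving out each library. Others summed the female and male libraries of P14 saline replicate 3, or fitted the saline libraries alone. For nuclei, the 2 libraries that went against their labels were also dropped. Dropping shared barcodes and scaling by total UMIs were added after seeing the data.

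Deviations from group means of same-numbered saline and MIA libraries correlated by 0.553, 0.153 and 0.575 at E15.5. At E13.5 they correlated by 0.235, 0.0168 and 0.305, and at P14 by 0.269 for the 2 numbers. The 0.153 of E15.5 lay below the 0.235 and 0.305 of E13.5, so these values do not settle which libraries were paired. In nuclei such deviations correlated by 0.494 to 0.68, with the number standing for the software.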

Additional observations from a re-analysis of the deposited data

Results flagged for a closer look

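Class II UMIs were counted in the nuclei, where only class I genes were compared. All nuclei of null saline replicate 1 held 6 UMIs of the 4 class II genes, and those of wild-type saline replicate 2 held 9. Both are above the 3 counts that a count of 0 allows. Empty droplets of null saline replicate 1 held 0.537 CPM of H2-Ab1 and 0.268 of H2-Eb1, where H2-Ab1 reached at most 0.296 CPM in null saline nuclei. These UMIs thus cannot be told from free RNA, and wild-type saline replicate 2 had no empty droplets to compare. The check for a sample far from the others needed at least 4 libraries, so it covered only the 10 genes after saline at P14. Of these, 0 held such a sample, and groups of 2 or 3 libraries were not checked.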

How the results depend on the processing

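Of 15 counts and shares, 10 stayed within 1.5 times the reported value under each alternative and each left-out library, 9 of them with the same value. Of 99 values of single genes, 86 kept direction and side of the threshold in the alternatives other than left-out libraries. From E13.5 to E15.5 after saline, 2 members passed, and 1 (Cd74) with total UMIs as the scale and with all barcodes, and 1 to 3 when a library was left out. After MIA, 0 passed, and 1 with DESeq2 (Cd74), 1 without border macrophage clusters (H2-K1) and 0 to 3 when a library was left out. From E15.5 to P14, 3 passed, and 2 to 3 in the alternatives and when a library was left out. With the replicate block the number of members called was 2 from E13.5 to E15.5 after saline, 0 after MIA and 3 from E15.5 to P14. Among the other genes named, the block removed the calls of Rfx5 after saline and H2-Q6 after MIA and added that of Calr after saline, and it changed no other call. With class II-high set at 5 UMIs, the MIA difference in share was -0.00342 percentage points at E13.5, -0.003453 at E15.5 and 0.02697 at P14 (5 cells against 4, exact permutation p = 0.2667), and at 20 UMIs it was 0.0 at P14, where leaving out a library gave 0.01249 to 0.01992. H2-K1 for MIA in null nuclei turned from -0.26 to 0.14 without the 2 libraries that went against their labels. Leaving out 1 library turned the sign of these log2 differences, none of which had passed, with these ranges: at E13.5 H2-K1 (-0.178 to 0.0293) and H2-D1 (-0.0587 to 0.132); at E15.5 Ctsl (-0.10 to 0.56), Psmb9 (-0.44 to 0.13), H2-D1 (-0.26 to 0.45), H2-M3 (-0.0160 to 0.478) and Cd74 (-0.32 to 0.18). The same held for H2-K1 from E15.5 to P14 (-0.0806 to 0.180), for the Psmb9 effect at E15.5 minus E13.5 (-0.575 to 5.1e-05), for H2-K1 for MIA in null nuclei (-0.604 to 0.152) and for its wild-type minus null effect (-0.57 to 0.19). The causes were not tested. H2-Aa and H2-Eb1 were too shallow for a test.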
